A study of Mus musculus with 8 samples.

Results

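The genes described here are 10 transporters, channels and pump subunits by which colon surface cells move salt and water: the anion exchangers Slc26a3 and Slc26a2, the sodium/proton exchanger Slc9a3, the water channels Aqp8 and Aqp4, the 3 subunits of the epithelial sodium channel (ENaC) Scnn1a, Scnn1b and Scnn1g, the sodium pump regulator Fxyd4, and the proton/potassium pump Atp12a. They were taken by name from a count table of 23282 gene lines, and all 10 names were found on 1 line each. They were chosen by their CPM in all 8 libraries, with those values known, so every level and fold change below describes the data and tests nothing about the choice.

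Intestinal tissue of wild type C57BL/6 mice was profiled with the QuantSeq kit, which primes reads near the 3′ end of polyadenylated RNA, in 4 groups of 2 libraries. The ExDSS group received 1 mg of bovine colostrum exosomes by gavage each day for 3 weeks and then 3% dextran sodium sulfate (DSS), a sulfated polysaccharide that injures the gut lining, in drinking water for 6 days. The PC group received phosphate buffer by gavage and then DSS, the Ex group exosomes and no DSS, and the NC group buffer and no DSS. Neither the gut region nor the number of mice behind a group is given in the sources used here. The p-values below therefore reflect only how far the 2 libraries of a group lay apart, a distance that may be technical. This distance was estimated over all 4 groups together, so those of PC against NC also rest on the spread within Ex and ExDSS.

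In the colon, sodium enters surface cells through Slc9a3 in exchange for protons, or through ENaC as a bare current, and chloride follows through Slc26a3 in exchange for bicarbonate. Sodium/potassium pumps in the opposite membrane carry the sodium on towards the blood, and water follows through aquaporins and between cells. Aldosterone, a corticosteroid hormone, raises ENaC and Fxyd4 in the distal colon, and loss of these transporters is a known part of diarrhoea in colitis.

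Total counts ranged from 8813622 to 12308537 in 7 libraries and were 1163147 in Ex 2. Genes with any count numbered 9825 and 11874 in ExDSS, 16787 and 16790 in PC, 16374 and 8760 in Ex, and 16123 and 12683 in NC. A gene without counts in ExDSS therefore stands among many that were detected in PC and not there. The ribosomal precursor Rn45s took 53.5% of the counts of Ex 2 (95% exact binomial interval 53.4 to 53.6%, counting error only) and between 0.407% and 13.1% of those of the others. Levels are given as normalised CPM, counts scaled to CPM by the library total and a TMM factor, and 3 counts, taken as the floor of detection, equal 4.47 normalised CPM in Ex 2 and between 0.199 and 0.411 in the other 7. The 9 pan-epithelial genes (Epcam, Cdh1, keratins and others) summed to 4998 and 4334 normalised CPM in ExDSS, 4263 and 3931 in PC, 4550 in Ex 1 and 4399 and 6908 in NC, but to 59.6 in Ex 2, from 40 counts. Ex 2 therefore held little epithelial RNA by this list, and values of the Ex group rest on Ex 1. The 5 neutrophil markers, of cells that DSS colitis is known to draw in, summed to 2894 and 1832 in ExDSS, 8.43 and 7.77 in PC, 6.84 and 5.96 in Ex, and 2303 and 2126 in NC. The libraries labelled NC and PC thus went against their labels in these genes. An exchange of the 2 labels was not tested, and it would turn the sign of every comparison of PC with NC below and change what ExDSS and Ex are set against. PC and NC are used here as names of the labels. In tissue RNA, fewer colonocytes and less RNA per colonocyte cannot be told apart.

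Transcripts of other tissues and cell types differed between libraries. The 5 kidney tubule markers summed to 688 normalised CPM in ExDSS 1 and 73.2 in ExDSS 2, 1.45 and 1.26 in PC, 4.29 and 26.8 in Ex, and 5.83 and 163 in NC. Nphs1 among them, a podocyte gene, had no count in any library. Pancreatic acinar genes summed to 210082 in ExDSS 1 and 83899 in NC 2, and to between 17.0 and 103 in the other 6. The 6 genes of distal colon patterning summed to 5.62 and 25.0 in ExDSS, 98.2 and 216 in PC, 271 and 81.9 in Ex, and 7.62 and 10.2 in NC. Gastric markers summed to at most 1.13 in any library, 8 small intestinal enterocyte markers to between 0.137 and 91.0, and smooth muscle genes to between 1770 and 4164 in 7 libraries and 32.8 in Ex 2. Goblet cell genes summed to 19902 and 54569 in ExDSS, 14209 and 19332 in PC, 13844 and 223 in Ex, and 14744 and 26543 in NC. Enteric glia and neuron genes summed to between 14.6 and 65.6 in 7 libraries and 2.98 in Ex 2. The part of these tissues in the values below was not tested, except where stated.

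**Figure D1:**
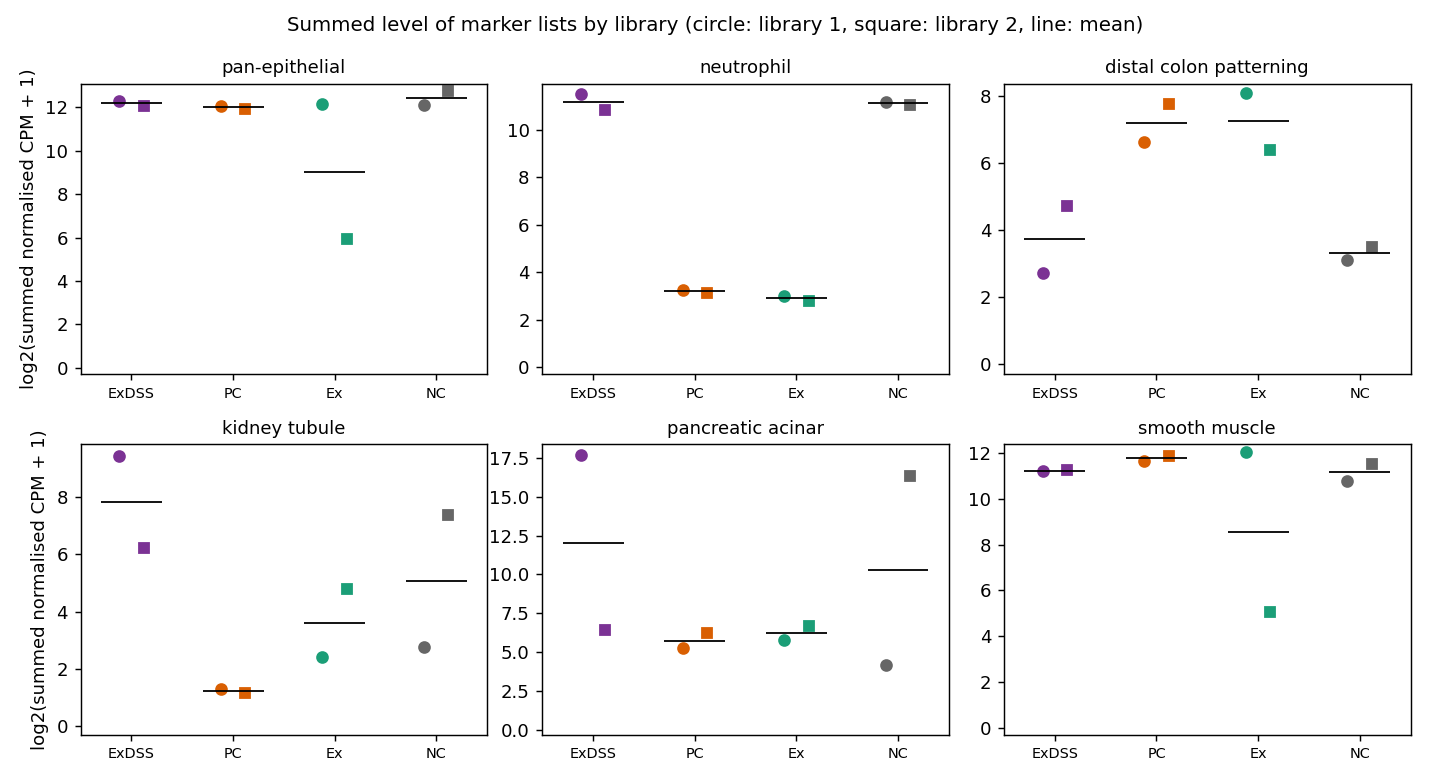
Summed level of 6 marker lists in each library, as log2(summed normalised CPM + 1), by group on the x axis. Circles are library 1, squares library 2 and lines the mean of the 2 plotted values. Kidney and pancreatic genes stand highest in ExDSS 1 and NC 2, and kidney genes come next in ExDSS 2. Neutrophil genes are high in both ExDSS and both NC libraries, and Ex 2 is low in epithelial and smooth muscle genes.

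Promoters of 6 of the 10 genes, taken from the RefSeq table of build GRCm38.p6, were searched. Those of Slc26a2, Aqp4, Scnn1a and Atp12a were not searched, so the motif counts below hold for the 6 alone. The results turn on the levels of 3 of the 6. Slc26a3 and Aqp8 had similar levels in the 2 PC libraries and spread over 5-fold in NC, and Fxyd4 had no count in NC. The 250 bases before the start are shown for these 3. They lie at chr12:31437969-31438218 on the plus strand, chr7:123462044-123462293 on the plus strand and chr6:117937336-117937585 on the minus strand. Capitals mark TATAAA, the TATA box.
Slc26a3: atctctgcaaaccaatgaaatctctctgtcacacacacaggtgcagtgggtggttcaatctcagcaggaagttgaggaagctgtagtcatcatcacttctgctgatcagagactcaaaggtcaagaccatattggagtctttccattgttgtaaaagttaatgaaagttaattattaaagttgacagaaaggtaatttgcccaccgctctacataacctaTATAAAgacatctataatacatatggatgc
Aqp8: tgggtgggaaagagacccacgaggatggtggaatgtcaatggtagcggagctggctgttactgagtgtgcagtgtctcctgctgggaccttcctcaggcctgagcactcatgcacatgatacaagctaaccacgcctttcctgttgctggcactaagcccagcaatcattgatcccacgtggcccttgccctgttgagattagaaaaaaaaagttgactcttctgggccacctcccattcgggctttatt
Fxyd4: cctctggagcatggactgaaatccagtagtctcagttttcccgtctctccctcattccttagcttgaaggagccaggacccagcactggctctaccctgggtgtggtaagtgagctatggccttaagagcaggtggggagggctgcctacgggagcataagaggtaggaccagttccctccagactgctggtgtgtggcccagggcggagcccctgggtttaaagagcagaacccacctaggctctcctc
TATAAA, searched on both strands and chosen after the sequences were seen, was found in 1 of the 6, starting 30 bases before the start of Slc26a3, and in 12.4% of 32851 promoters of this length. None of the 6 held CAAAGTCCA (an HNF4 site, 0.384% of promoters), TTTATTG (a CDX site, 4.20%), TGTTCT (a steroid receptor half-site, 16.1%) or the palindrome of that half-site, which contains it (0.00913%). These letters are not in these windows, and nothing follows from that about the factors.

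Slc26a3, the chloride/bicarbonate exchanger whose loss in humans causes congenital chloride diarrhoea, had 500 and 612 normalised CPM in the ExDSS libraries, 799 and 808 in PC, 2037 and 11.9 in Ex, and 247 and 1351 in NC. The group order by mean was Ex, PC, NC and ExDSS, and every neighbouring pair in that order overlapped. The PC libraries differed by 1.01-fold and the NC libraries by 5.46-fold. Its gene model in the table lies at chr12:31438219-31473919 on the plus strand. The submitters' processing notes name mm9, but 99.69% of 22139 matched gene models overlapped the same gene in GRCm38, so coordinates are read as GRCm38.

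Slc26a2 carries sulfate, which goblet and surface cells need to sulfate mucins and matrix. It had 0.137 and 39.3 normalised CPM in ExDSS, from 1 and 469 counts, 72.6 and 83.2 in PC, 121 and 2.98 in Ex, and 30.2 and 20.5 in NC. Both PC libraries were above both NC libraries and above both ExDSS libraries. The single count in ExDSS 1 came from a library in which 8 of 9 pan-epithelial genes were detected. In all, 9825 genes were detected in that library, beside 16787 and 16790 in PC.

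Slc9a3 encodes the sodium/proton exchanger NHE3, a main route of sodium absorption in small intestine, colon and kidney. It had 27.4 normalised CPM in ExDSS 1, from 200 counts, and none in ExDSS 2, against 0.364 and 0.235 in PC, 0.102 and 1.49 in Ex, and 0.199 and none in NC. Outside ExDSS 1 it never had more than 5 counts, so it did not pass the filter on low counts and no comparison was fitted. The table's gene model at chr13:74121515-74166064 ends 3378 bases before the farthest coding transcript end in GENCODE vM21 (74169442). Such a gap above 1000 bases was present for 14.2% of 19844 genes. Slc26a2 had a gap of 3935 bases, and for the other 8 genes the gap was at most 1 base. Reads from 3′ ends beyond the model are not counted, and their share for Slc9a3 was not tested.

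The kidney genes of ExDSS 1 stand beside the value of Slc9a3. Umod, the urinary protein of the thick ascending limb, had 237 and 34.0 normalised CPM in ExDSS, 0.364 and 0.314 in PC, 1.53 and 7.44 in Ex, and 1.13 and 18.0 in NC. Aqp2, the water channel of the kidney collecting duct, had 146 and 2.93 in ExDSS, 0.0727 and none in PC, 0.102 and 2.98 in Ex, and 0.133 and 5.62 in NC. Kidney tubules are known to express Slc9a3, and the collecting duct to express ENaC and Fxyd4. The ExDSS 1, ExDSS 2 and NC 2 values of these genes are therefore given with this limit.

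Aqp8, a water channel of surface colonocytes, had 56.6 and 190 normalised CPM in ExDSS, 600 and 621 in PC, 1033 and 1.49 in Ex, and 77.5 and 416 in NC. Both PC libraries were above both ExDSS and both NC libraries. The NC libraries differed by 5.37-fold and the PC libraries by 1.03-fold. Aqp8 lies at chr7:123462294-123468003 (plus strand).

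Aqp4, a water channel of epithelial basolateral membranes and of glia, had 112 and 95.1 normalised CPM in ExDSS, 309 and 198 in PC, 157 and none in Ex, and 404 and 212 in NC. The mean of Aqp4 was highest in NC, whose range overlapped that of PC. Both ExDSS libraries were below all PC and NC libraries. The part of glia in the level of Aqp4 was not tested.

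ENaC is built of an alpha (Scnn1a), a beta (Scnn1b) and a gamma (Scnn1g) subunit, and in the colon aldosterone is known to raise the beta and gamma subunits. Scnn1a had 66.6 and 14.4 normalised CPM in ExDSS, 14.3 and 18.7 in PC, 25.0 and none in Ex, and 7.09 and 20.0 in NC. Its highest value was in ExDSS 1, beside the kidney genes, and the other libraries overlapped across groups. Scnn1b had 1.78 and 4.44 in ExDSS, 0.945 and 1.10 in PC, 2.66 and 4.47 in Ex, and 4.18 and 10.01 in NC, with both PC libraries below all the others and the value of Ex 2 resting on 3 counts. Scnn1g had none and 1.00 in ExDSS, 0.727 and 0.863 in PC, 1.12 and none in Ex, and none in either NC library, from at most 12 counts in any library. The beta subunit was lowest in PC, where the gamma subunit had its highest mean, though its PC values lay within the range of ExDSS and of Ex. The models lie at chr6:125321340-125344942 (Scnn1a), chr7:121865038-121918728 (Scnn1b) and chr7:121734507-121768477 (Scnn1g), all on the plus strand.

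Fxyd4, also called CHIF, binds the sodium/potassium pump and raises its affinity for sodium. It had 46.9 and 37.3 normalised CPM in ExDSS, 17.7 and 55.3 in PC, 174 and none in Ex, and none in either NC library, whose floors were 0.199 and 0.286. It was detected in 5 libraries and in none of NC 1, NC 2 and Ex 2. All ExDSS and PC libraries were thus above both NC libraries. Its model lies at chr6:117933559-117937335 on the minus strand.

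Atp12a encodes the catalytic subunit of the colonic proton/potassium pump, which takes up potassium and acidifies the lumen. It had 2.06 and 170 normalised CPM in ExDSS, 49.8 and 102 in PC, 300 and 5.96 in Ex, and 4.24 and 12.5 in NC. Both PC libraries were above both NC libraries, while the ExDSS libraries differed by 82.7-fold and lay on either side of PC. Its model lies at chr14:56365068-56388551 on the plus strand.

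Genes of distal colon patterning stand beside the values of Fxyd4 and Atp12a. Their sum, given above, was higher in both PC than in both NC libraries, as were Fxyd4 and Atp12a. The sum of Ex 2 (81.9) came from 55 counts, in a library with 40 pan-epithelial counts and none of Fxyd4. Hoxb13, picked after its values were seen, had 5.21 and 18.1 normalised CPM in ExDSS, 83.0 and 152 in PC, 183 and none in Ex, and 5.90 and none in NC. Hoxd10 had none and 0.754 in ExDSS, 2.69 and 6.20 in PC, 10.2 and 49.1 in Ex, and 0.464 and 10.1 in NC, so the genes of this list differed in their order. In the same 2 ExDSS libraries Fxyd4 had 46.9 and 37.3 and Atp12a 2.06 and 170. The position of the tissue along the gut cannot be told apart from treatment where both move together, and its part in these genes was not tested.

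**Figure D2:**
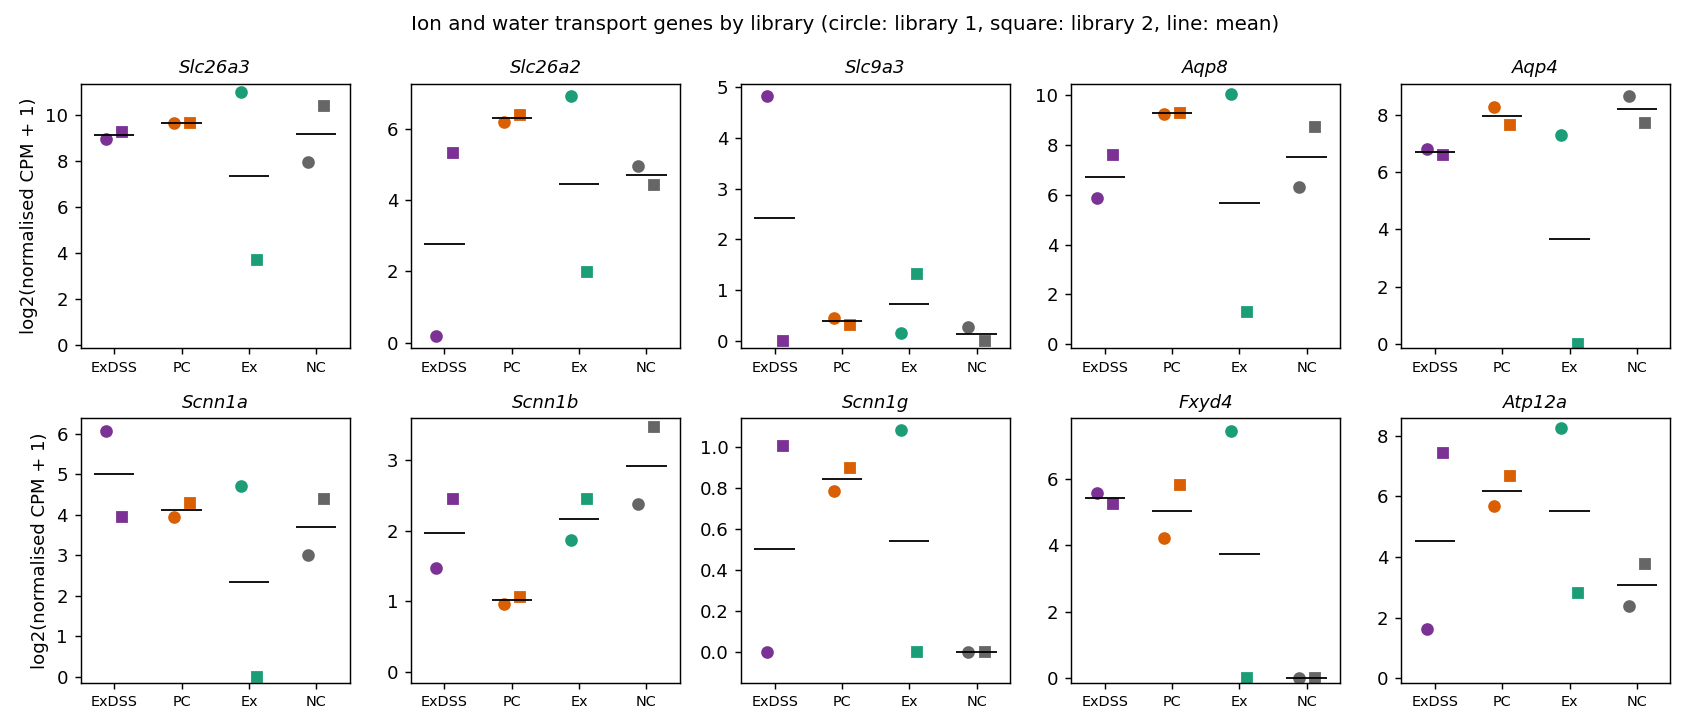
Level of each of the 10 genes in the 8 libraries, as log2(normalised CPM + 1), 1 panel per gene and groups on the x axis. Circles are library 1, squares library 2 and lines the mean of the 2 plotted values. The PC libraries lie close together for most genes, Ex 2 lies at or near 0 for most, and Fxyd4 is at 0 in both NC libraries.

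The spread within a group was described by the ratio of its libraries. Over the genes with more than 3 counts in both libraries, the ratio of the higher to the lower library was between 1.17 and 82.7 in ExDSS (median 2.49, 7 genes), between 1.01 and 3.12 in PC (median 1.19, 9 genes) and between 1.48 and 5.46 in NC (median 2.82, 7 genes). In Ex only Slc26a3 (171) and Atp12a (50.4) had such a ratio, since the other 8 genes were at or under the floor in Ex 2. Ex 1 had the highest level of all 8 libraries for 6 of the 10 genes, and Ex 2 the lowest for 6.

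By its labels, PC against NC sets DSS against no DSS in mice without exosomes, while the neutrophil sums were low in PC (8.43 and 7.77) and high in NC (2303 and 2126). Among the 9 genes that passed the filter, Slc26a2, Aqp8, Scnn1g, Fxyd4 and Atp12a were higher in both PC libraries than in both NC libraries, where 31.0% of all 14567 genes tested were, and Scnn1b was lower, as were 23.6%. By the quasi-likelihood test of edgeR, adjusted after Benjamini and Hochberg, 0 of the 9 passed an adjusted p of 0.05 (background 0%), with adjusted p between 0.481 and 1, and 2, Fxyd4 and Scnn1g, had an unadjusted p under 0.05 in either direction, both higher (background 2.49%). DESeq2 called Fxyd4 alone (background 0.674%) and limma-voom none (0.0137%). The log2 fold change was 1.62 (SE 1.68) for Slc26a2, 1.31 (SE 1.67) for Aqp8, 3.18 (SE 1.73) for Atp12a and -2.78 (SE 2.22) for Scnn1b. Against the NC floor of 3 counts per library, the PC mean was at least 151-fold higher for Fxyd4 and at least 3.28-fold for Scnn1g. These limits hold for the mean of the PC libraries, which for Fxyd4 had 17.7 and 55.3 normalised CPM. Slc26a3 (0.01, SE 1.62), Aqp4 (-0.28, SE 1.51) and Scnn1a (0.28, SE 1.67) took the opposite sign without NC 1, Aqp4 also without PC 2, and Slc26a3 also with RLE factors (-0.05). The median over the 9 was 1.31, beside 0.10 over all genes. A fit without NC 2 and ExDSS 1 left out the libraries with the highest pancreatic and kidney sums. ExDSS 2, with a kidney sum of 73.2, was kept. In that fit Slc26a2 was 1.37, Aqp8 2.98, Atp12a 4.16, Scnn1b -2.01 and Slc26a3 1.71.

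By its labels, ExDSS against PC sets exosomes before DSS against buffer before DSS, while the neutrophil sums were 2894 and 1832 in ExDSS and 8.43 and 7.77 in PC. Slc26a3, Slc26a2, Aqp8 and Aqp4 were lower in both ExDSS libraries than in both PC libraries (background 45.4%), and Scnn1b was higher (background 18.9%). By edgeR 0 of the 9 passed (background 0%; adjusted p between 0.566 and 0.981), 0 had an unadjusted p under 0.05 (19.0% of all genes did), and DESeq2 (10.2%) and limma-voom (7.96%) each called 0. The log2 fold change was -0.53 (SE 1.63) for Slc26a3, -1.98 (SE 1.70) for Slc26a2, -2.31 (SE 1.73) for Aqp8, -1.30 (SE 1.53) for Aqp4 and 1.60 (SE 2.14) for Scnn1b, and each kept its sign when any 1 library was left out. Slc26a2 was -9.04 without ExDSS 2, from the single count of ExDSS 1, and -1.002 without ExDSS 1. Scnn1a (1.30, SE 1.69) and Scnn1g (-0.61, SE 2.06) took the opposite sign without ExDSS 1, and Fxyd4 (0.20, SE 1.61) without PC 1. Atp12a (0.19, SE 1.59) was -5.21 without ExDSS 2 and was also negative without PC 1. With library totals alone as the scale, Fxyd4 was -0.26 and Atp12a -0.02. The median over the 9 was -0.53, and that over all genes -0.51. Without NC 2 and ExDSS 1, Slc26a3 was -0.41, Slc26a2 -1.001, Aqp8 -1.70, Aqp4 -1.43, Scnn1b 2.09 and Scnn1a -0.21, and 0 were called.

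By its labels, Ex against NC sets exosomes against buffer in mice without DSS, while the neutrophil sums were 6.84 and 5.96 in Ex and 2303 and 2126 in NC. The values of Ex rest on Ex 1. Aqp4 was lower in both Ex libraries than in both NC libraries (background 22.9%) and 0 of the 9 were higher in both (background 11.1%). By edgeR 0 of the 9 passed (background 0%; adjusted p between 0.665 and 0.999), and 3, Atp12a, Fxyd4 and Scnn1g, had an unadjusted p under 0.05 in either direction, all higher (background 5.31%). DESeq2 called Fxyd4 (3.55%) and limma-voom none (0%). The log2 fold change was 4.20 (SE 1.81) for Atp12a and -1.96 (SE 1.56) for Aqp4. The Ex mean was 360-fold the NC floor for Fxyd4 and 2.32-fold for Scnn1g. Both genes had no count in Ex 2, so these are limits on the mean and not on each library. Without Ex 1 edgeR called Slc26a3, Aqp8 and Aqp4, all lower in Ex 2, with log2 fold changes of -6.19 for Slc26a3 and -7.48 for Aqp8, while Aqp4 had 0 counts in Ex 2. Without Ex 1, Atp12a was -0.61, and Fxyd4 and Scnn1g had no count on either side, so their higher values in Ex come from Ex 1 alone.

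ExDSS against Ex compares DSS with no DSS in mice given exosomes. The groups overlapped for all 9 genes (background 17.0% higher and 17.0% lower). By edgeR 0 passed (background 0%; adjusted p between 0.553 and 0.984), 0 had an unadjusted p under 0.05 (19.8% of all genes did), and DESeq2 (14.0%) and limma-voom (3.47%) called 0. Log2 fold changes were between -2.07 (SE 1.71) for Aqp8 and 1.63 (SE 1.71) for Scnn1a, and Scnn1a alone kept its sign when any 1 library was left out. Without Ex 1 edgeR called Slc26a3 and Aqp4, both higher in ExDSS.

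The difference between the DSS comparison with exosomes and that without was fitted as an interaction, ExDSS minus Ex less PC minus NC. EdgeR called 42 genes of 14567 (0.288%) and 0 of the 9, with adjusted p between 0.0914 and 0.919. Fxyd4 had the lowest of these, an unadjusted p under 0.05 (background 18.8%) and a negative sign, and DESeq2 called it (11.3%), while limma-voom called 0 (2.24%). Its fitted size depends on the prior count, since both NC libraries were at 0. The interaction was -3.29 for Slc26a2, -3.38 for Aqp8 and -4.01 (SE 2.34) for Atp12a on the log2 scale. Without Ex 1, edgeR called Aqp4 alone, and Fxyd4 (0.22, with no count in Ex 2 or NC) and the 3 genes just named took a positive sign. The 4 comparisons share libraries, so their values are not independent of each other.

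**Figure D3:**
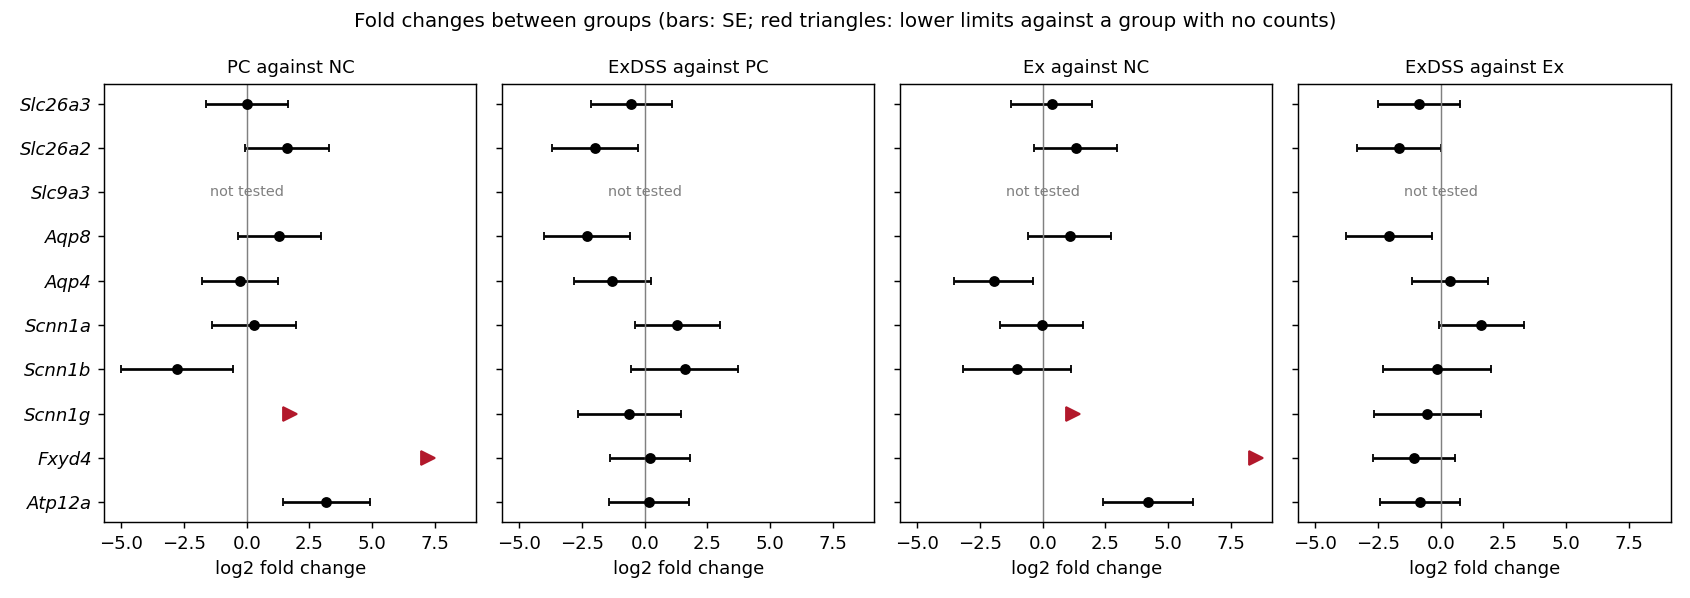
Log2 fold change of the 9 tested genes in 4 comparisons, with bars of 1 standard error from edgeR. Red triangles mark lower limits for the group means of Fxyd4 and Scnn1g against NC, computed as the mean over the NC floor. The bars are between 1.51 and 2.22 wide on each side. Among the genes drawn with bars in PC against NC, Atp12a lies highest, at 3.18.

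Counts were also set per 1000 counts of the 9 pan-epithelial genes, a scale chosen after the data were seen, which leaves out Ex 2 with its 40 epithelial counts. ExDSS 1 and NC 2, the libraries with the highest pancreatic and kidney sums, also had the highest pan-epithelial sums (4998 and 6908 normalised CPM). The part of those tissues in the pan-epithelial counts was not tested, and it would lower the values of ExDSS 1 and NC 2 on this scale. Aqp8 had 11.3 and 43.8 on this scale in ExDSS, 141 and 158 in PC, 227 in Ex 1, and 17.6 and 60.2 in NC. Slc26a3 had 100.01 and 141 in ExDSS, 187 and 205 in PC, 448 in Ex 1, and 56.2 and 196 in NC. As on the normalised scale, both PC libraries were above both ExDSS libraries for both genes, and above both NC libraries for Aqp8. Atp12a had 0.412 and 39.2 in ExDSS, 11.7 and 25.8 in PC, 65.9 in Ex 1, and 0.965 and 1.81 in NC. Fxyd4 had 9.38 and 8.60 in ExDSS, 4.16 and 14.1 in PC, 38.3 in Ex 1, and none in NC. Both PC libraries were above both NC libraries for these 2 genes as well. Scnn1a had 13.3 and 3.32 in ExDSS, 3.36 and 4.75 in PC, 5.50 in Ex 1, and 1.61 and 2.90 in NC. Its PC libraries were above both NC libraries on this scale, while the 2 groups overlapped on the normalised scale. Slc26a2 had 0.0274 and 9.06 in ExDSS, 17.0 and 21.2 in PC, 26.6 in Ex 1, and 6.87 and 2.97 in NC. Scnn1b had 0.357 and 1.02 in ExDSS, 0.222 and 0.279 in PC, 0.584 in Ex 1, and 0.950 and 1.45 in NC, so that PC was again the lowest group for Scnn1b and above ExDSS and NC for Slc26a2. Aqp4 had 22.3 and 22.0 in ExDSS, 72.5 and 50.5 in PC, 34.5 in Ex 1, and 91.9 and 30.7 in NC, with both ExDSS libraries below the 5 others shown. The share of all genes whose groups did not overlap was not computed on this scale. On the normalised scale 31.0% were higher in both PC than in both NC libraries, and 45.4% lower in both ExDSS than in both PC libraries.

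**Figure D4:**
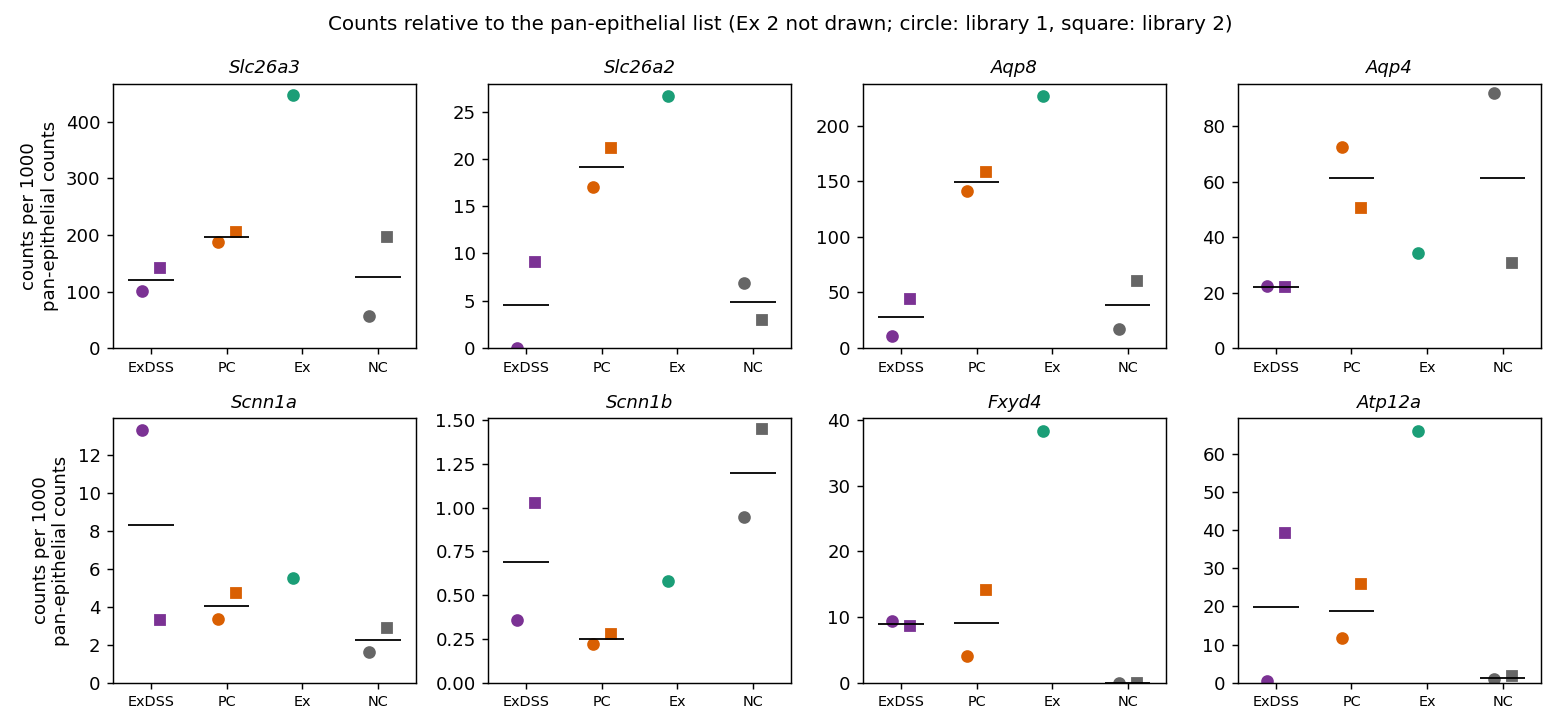
Counts of 8 of the genes per 1000 counts of 9 pan-epithelial genes, on a linear axis from 0, by group. Circles are library 1, squares library 2, lines the mean of the plotted values, and Ex 2 is not drawn because it held 40 epithelial counts. For Aqp8 both PC libraries, at 141 and 158, lie above both ExDSS and both NC libraries.

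The 7 lists of other genes of the pathway held 62 genes, of which 55 were tested. EdgeR called 0 in any of the 5 comparisons. In ExDSS against PC 1 had an unadjusted p under 0.05 and was higher (Aqp2), and 7 were lower: Slc9a2, Slc16a1, Slc12a4, Cftr, Kcnq1, Nr3c1 and Nr3c2. These 8 are 14.5% of the 55, below the 19.0% of all genes at that level. The median log2 fold change of the 55 was -0.83, with 34 negative, beside -0.51 over all genes. In PC against NC 1 was lower (Aqp2) and 0 were higher (1.82%, beside 2.49% of all genes), and in Ex against NC 1 was higher (Slc16a1; 1.82%, beside 5.31%). In ExDSS against Ex 2 were higher and 8 lower (18.2%, beside 19.8%), and in the interaction 2 and 7 (16.4%, beside 18.8%).

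Guca2a, the precursor of guanylin, which promotes secretion into the lumen, had 266 and 655 normalised CPM in ExDSS, 1724 and 1397 in PC, 1297 and 5.96 in Ex, and 478 and 498 in NC. The PC libraries were above the NC libraries (background 31.0%) and above the ExDSS libraries (background 45.4%). Guca2b, the precursor of uroguanylin, had 23.5 and 44.1 in ExDSS, 29.7 and 17.8 in PC, 17.9 and none in Ex, and 46.7 and 71.6 in NC. Its PC libraries were below both NC libraries (background 23.6%). In PC against NC the 8 genes of the scaffold and guanylin list had a median log2 fold change of -0.55, beside 0.10 over all genes.

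The secretion list (10 genes) had 9 negative values in ExDSS against PC and a median of -1.67, beside -0.51 over all genes. Kcnma1 (0.17, SE 1.42) alone was positive. Kcne3 had 158 and 110 normalised CPM in ExDSS and 308 and 361 in PC (log2 fold change -1.32, SE 1.47). Slc12a2 had 18.9 and 45.9 in ExDSS and 118 and 93.1 in PC (-1.70, SE 1.24). The 2 genes described next had an unadjusted p under 0.05 by edgeR and larger fold changes. Cftr, the chloride channel of crypt secretion, had none and 0.67 normalised CPM in ExDSS, 80.8 and 67.3 in PC, 55.0 and none in Ex, and 38.9 and 44.6 in NC. Its log2 fold change in ExDSS against PC was -7.65 (SE 2.15; edgeR adjusted p 0.228). Kcnq1, a potassium channel subunit that supports secretion, was not detected in ExDSS and had 17.4 and 15.4 in PC. For both genes the ExDSS libraries were below every PC and NC library. Of all genes tested, 45.4% were lower in both ExDSS than in both PC libraries. Fewer genes of any kind were detected in ExDSS (9825 and 11874) than in PC (16787 and 16790).

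Slc9a2, a second sodium/proton exchanger of surface cells, was not detected in ExDSS, had 10.8 and 7.22 in PC, 6.84 and none in Ex, and 1.79 and 0.286 in NC. As given above, the ExDSS libraries held fewer detected genes than the PC libraries. Slc16a1, which carries butyrate and lactate, had 3.70 and 24.5 in ExDSS, 143 and 147 in PC, 204 and 506 in Ex, and 47.3 and 9.24 in NC. The PC libraries were above the ExDSS and NC libraries in both genes. Of all genes tested, 31.0% were higher in both PC than in both NC libraries. A larger share, 45.4%, was lower in both ExDSS than in both PC libraries. The 3 carbonic anhydrases Car1, Car2 and Car4, which supply bicarbonate and protons to the exchangers, had a median of 1.59 (log2 fold change) in PC against NC and -2.20 in ExDSS against PC, where Car4 alone was positive. The medians over all genes were 0.10 and -0.51. Car1 had 469 and 928 in ExDSS, 3778 and 2664 in PC, 4391 and 13.4 in Ex, and 900.3 and 892 in NC.

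The genes nearest to each in pattern were found as the smallest root mean square difference of centred log2(normalised CPM + 1) over the 8 libraries, among 10048 genes. They were Atp5c1 (0.37) and Adh1 (0.42) for Slc26a3, Gstt2 (0.35) and Tprgl (0.42) for Slc26a2, Selenbp1 (0.51) and Bet1l (0.64) for Aqp8, and Mgam (0.37) and Gcnt3 (0.44) for Aqp4. For Scnn1a they were Pex19 (0.37) and Dcxr (0.40), for Fxyd4 Tgm3 (0.68) and Tnnt2 (0.96), and for Atp12a Slc37a2 (0.83) and Snord49b (0.93). Tgm3, an epidermal and colonic transglutaminase, had 184 and 664 normalised CPM in ExDSS, 230 and 505 in PC, 945 and 4.47 in Ex, and 8.29 and 10.9 in NC. Like Fxyd4 it was lowest in NC and Ex 2. Of the 14 pairs, 10 were found again with CPM of the library total and 7 with a pseudocount of 5, so several of these names depend on the scale.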

How the data were processed

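RNA of 8 mouse intestinal samples was made into QuantSeq 3′ libraries. The deposited values are raw counts of reads per gene, and Bowtie2, bedtools, edgeR and mm9 are named in the submitters' processing notes, without versions. Genes were tested with edgeR 4.0.16 in R 4.3.3: TMM factors, filterByExpr (minimum count 10, minimum total 15; 14567 genes kept), and a robust quasi-likelihood fit over all 8 libraries with 1 coefficient per group and 4 residual degrees of freedom. P-values were adjusted by Benjamini-Hochberg over all tested genes. Standard errors are the log2 fold change divided by the root of F. DESeq2 1.42.0, limma-voom 3.58.1, other scalings and filters, a replicate block and leaving out each library were alternatives. The fit was run on simulated counts with the same spread for all genes, whose libraries differed only in depth, sampling and changes put in. How it performs on libraries as unequal as these was not tested. No 2 libraries of a group agreed within sampling noise. The 10 genes (the members) and the lists were chosen with earlier results of these data known. Named genes are the members, in each pathway list up to 3 genes of the highest mean and those with an unadjusted p under 0.05, markers beside a result and the 2 nearest genes per member. Tgm3, Hoxb13, Hoxd10, Guca2b and the shown promoters were picked after their values were seen. Unique molecular identifiers are not mentioned, so intervals and floors cover counting error only.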

Additional observations from a re-analysis of the deposited data

How the results depend on the processing

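The counts of genes called by edgeR, 0 in PC against NC, ExDSS against PC, Ex against NC and ExDSS against Ex and 42 in the interaction, depended on the setting; the cause was not tested. In that order they were 45, 132, 55, 223 and 350 with no filter on low counts, 83, 1488, 337, 2005 and 1616 with DESeq2, and 2, 1160, 0, 505 and 327 with limma-voom. The interaction count was 67 with RLE factors, 6 with library totals and 24 with a stricter filter. With no filter and with DESeq2, 1 of the 10 described genes (Fxyd4) was called in PC against NC, in Ex against NC and in the interaction. Replicate numbers did not pair the libraries: deviations of same-numbered libraries correlated between -0.149 and 0.0506. With the replicate block the counts were 0, 41, 0, 28 and 161, and 1 described gene (Fxyd4) was called in the interaction. Fitting only the groups of a comparison gives no interaction.

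Leaving out 1 library, where the lone sample is assumed to vary like the other groups, gave counts of 0 to 4, 0 to 6, 0 to 1596, 0 to 1883 and 0 to 1663, and 0 to 0, 0 to 0, 0 to 3, 0 to 2 and 0 to 1 described genes. The highest values of the last 3 came without Ex 1. Without Ex 1 and without Ex 2 the counts were 3 and 4 in PC against NC and 5 and 6 in ExDSS against PC, and ExDSS against Ex had 7 without either PC library. The interaction had 14 without ExDSS 1, 23 without ExDSS 2, 1 without PC 1, 7 without Ex 2 and 0 without NC 1 or NC 2. Without NC 2 and ExDSS 1, chosen after seeing the data, it had 0. Without Ex 2 as well, the spread came from the PC pair alone (1 residual degree of freedom), and the counts were 3910, 10719, 3603, 9839 and 9646, with 7, 4, 7, 4 and 7 described genes. With library totals alone, the median fold change (log2) over all genes was 0.29, -0.91 and -0.49 in the first 3 comparisons, and with TMM factors 0.10, -0.51 and -0.27. Of 9 fold changes, 8, 7, 8, 8 and 9 kept their sign under all scalings, and 6, 5, 2, 1 and 2 when any 1 library was left out. In Ex 2 the floor of 3 counts equals 4.47 normalised CPM, and lower levels were not detectable there.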
